A study of Homo sapiens with 6 samples.

Results

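The 32 genes described here encode the enzymes and regulators of cholesterol and fatty acid synthesis, and were followed in H1975 cells, a human non-small cell lung cancer line with an activating EGFR mutation, before and after treatment with osimertinib (Osi), an EGFR tyrosine kinase inhibitor. They were picked by symbol from a list of the pathway, and all 32 were found among the 27216 rows of the expression table. The list holds 5 regulators, 19 genes of the sterol branch and 8 genes of the fatty acid branch, and some other enzymes of the pathway are not analysed here. RNA-sequencing was available for 6 samples of wild-type genotype by label, 3 parental (0 h of Osi) and 3 adapted (72 h of Osi). The labels give Osi at 1000 nM and growth in DMEM with 10% serum, whereas the study's methods name another medium with serum. The methods give the labelled dose of Osi for some other assays and none for RNA-sequencing, and the study's list of compounds gives another dose. The adapted samples hold only the cells left attached once dead cells had been washed away. The table's parental columns are named for DMSO. How long these cells were in culture is not stated, so exposure to Osi and time in culture cannot be told apart. The labels also describe digestion with RNase R, an enzyme that degrades linear RNA, whereas the study's methods name total RNA, and which of these applies to the values is not given in the sources used here. The study describes its experiments in general as independent, but the sources do not say of these 3 samples per group whether they came from separate cultures, so p-values measure the spread between these samples, which may be technical.

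Cholesterol is built from acetyl-CoA through mevalonate, squalene and lanosterol, and saturated fatty acids are built from the same acetyl-CoA through malonyl-CoA. Both branches are transcribed under the sterol regulatory element-binding proteins (SREBPs), of which SREBP-2, encoded by SREBF2, acts mainly on sterol genes and SREBP-1, encoded by SREBF1, mainly on fatty acid genes. The SREBPs are made as membrane precursors. When sterols are low, SCAP escorts them to the Golgi, where proteases release the active factor, and when sterols are high the INSIG proteins hold SCAP back. Growth factor signaling through EGFR, PI3K and mTORC1 is known to raise SREBP activity in tumor cells.

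Levels are given as log2(FPKM + 1), where FPKM counts fragments relative to transcript length and to all fragments mapped. The log2 form was inferred from the values, and FPKM itself was assumed. Fold changes are differences on this log2 scale, adapted minus parental, and understate the change of low genes. No read counts were used, so depth is unknown and errors come from the replicates alone. Per sample, the FPKM values added up to 375342 to 387753. All 6 epithelial markers examined were present, at a summed FPKM of 3710 to 3740 in parental and 3490 to 3790 in adapted samples. Within this sum KRT7 rose by 1.07 on the log2 scale, and KRT8, KRT18 and KRT19 fell by 0.28, 0.57 and 0.75. EPCAM and CDH1 differed by -0.15 and 0.01. The 5 leukocyte markers did not exceed an FPKM of 1 in any sample. Of the 4 endothelial and 5 fibroblast markers, 2 and 3 were likewise near 0, and the summed FPKM of the fibroblast list was 3.04 to 3.16 in parental and 8.60 to 9.33 in adapted samples, mostly COL1A1. The endothelial list summed to 1.13 to 1.88 in parental and 1.49 to 3.50 in adapted samples. Within it PECAM1 was at 1.22 ± 0.21 in parental and 0.09 ± 0.02 in adapted cells on the log2 scale (SD, n = 3 each) and CDH5 at 0.21 ± 0.05 and 1.71 ± 0.47, both without overlap and both too low to be tested. The part of these markers in the results was not tested. In 147 rows of the table, the 3 values of 1 group depart from the 6-decimal grid of all other values by a constant on the log2 scale, and none of the 32 genes is among these rows. Since these are bulk samples, a change in RNA per cell and a change in the mix of cells cannot be told apart.

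The sterol branch was mostly higher in adapted cells, whereas the fatty acid branch was mixed, with more genes lower than higher. Of the 32 genes, 24 passed the threshold of an adjusted p under 0.05 (limma, over all 12656 rows tested), 16 higher and 8 lower in adapted cells. The background is high, since 56.9% of all rows tested passed the same threshold, 30.7% higher and 26.2% lower. In the sterol branch 12 of 19 genes rose and 1 fell, with a median log2 fold change of 0.49 over the 19. In the fatty acid branch 2 of 8 rose and 5 fell, with a median of -0.26. Among these 5, ACACA and FADS1 lost their calls in some fits with other settings. The median of all rows tested was 0.028. The 3 samples of each group did not overlap in 25 of the 32 genes, 13 of 19 in the sterol branch, 7 of 8 in the fatty acid branch and all 5 regulators, against 66.3% of all rows (35.7% with higher and 30.6% with lower adapted values). The 25 genes split into 17 higher and 8 lower. With 3 samples against 3, a two-sided exact permutation test of a single gene cannot give a p below 0.1, which is the value for every gene without overlap. Past the threshold, 2 of the 32 genes, SQLE and SC5D, changed by 1 or more on the log2 scale, against 10.5% of all rows.

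**Figure D1:**
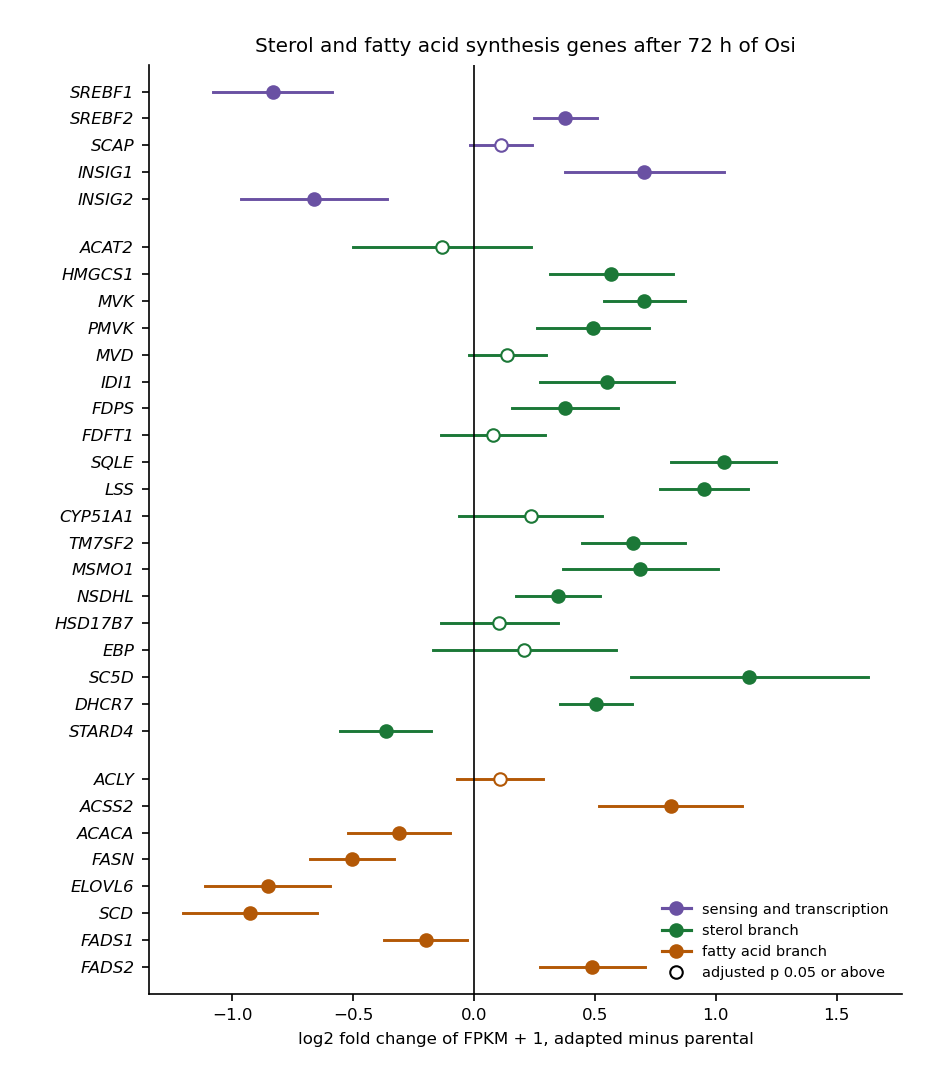
Log2 fold change (adapted minus parental, x axis) of the 32 genes in pathway order, with 95% confidence intervals from limma; filled points had an adjusted p under 0.05. Most sterol genes lie right of 0, up to 1.14 for SC5D, while SREBF1, INSIG2, STARD4, ACAT2 (not past the threshold) and 5 fatty acid genes lie left of 0, down to -0.93 for SCD.

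Among the regulators, the paired factors changed in opposite directions. SREBF1 was at 5.86, 5.85 and 5.78 in the parental and 4.76, 5.17 and 5.06 in the adapted samples. Every adapted sample was below every parental one, and the gene fell by 0.83 on the log2 scale (SE 0.11, limma, adjusted p = 0.000502), a mean FPKM 1.79-fold lower. SREBF2 was at 4.65, 4.58 and 4.58 in parental and 5.02, 4.98 and 4.94 in adapted samples. It rose by a smaller amount with little spread in either group (log2 fold change 0.38, SE 0.06, limma, adjusted p = 0.00108). The gap between the 2 transcripts, SREBF2 minus SREBF1, averaged -1.23 ± 0.04 before and -0.02 ± 0.24 after Osi (SD over 3 samples). SREBF1 was thus well above SREBF2 in parental cells, and the levels of the 2 genes overlapped in adapted cells.

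The INSIG genes exchanged their order. INSIG1, which holds SCAP back when sterols are high, is itself a target gene of the SREBPs. Its level was 3.55, 3.48 and 3.45 in parental and 4.34, 4.40 and 3.86 in adapted samples. INSIG1 rose by 0.71 (SE 0.14, limma, adjusted p = 0.00424), with adapted replicate 3 well below the other 2. INSIG2, the paralog with the same retaining role, was at 4.22, 4.14 and 4.11 in parental and 3.58, 3.70 and 3.19 in adapted samples. It fell by 0.66 on the log2 scale (SE 0.13, limma, adjusted p = 0.00374), again with adapted replicate 3 lowest. The difference INSIG1 minus INSIG2 averaged -0.66 ± 0.01 before and 0.71 ± 0.05 after Osi (SD over 3 samples), and its spread among adapted samples was far smaller than that of either gene. SCAP, the escort protein, was at 4.11 ± 0.02 and 4.22 ± 0.03 (SD, n = 3 each), and its log2 fold change of 0.11 (95% confidence interval -0.02 to 0.24) did not pass the threshold (limma, adjusted p = 0.12). SCAP did pass it when low rows were kept (limma, adjusted p = 0.0203) and when samples were scaled to 1 sum that left out mitochondrially encoded genes (adjusted p = 0.0476).

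**Figure D2:**
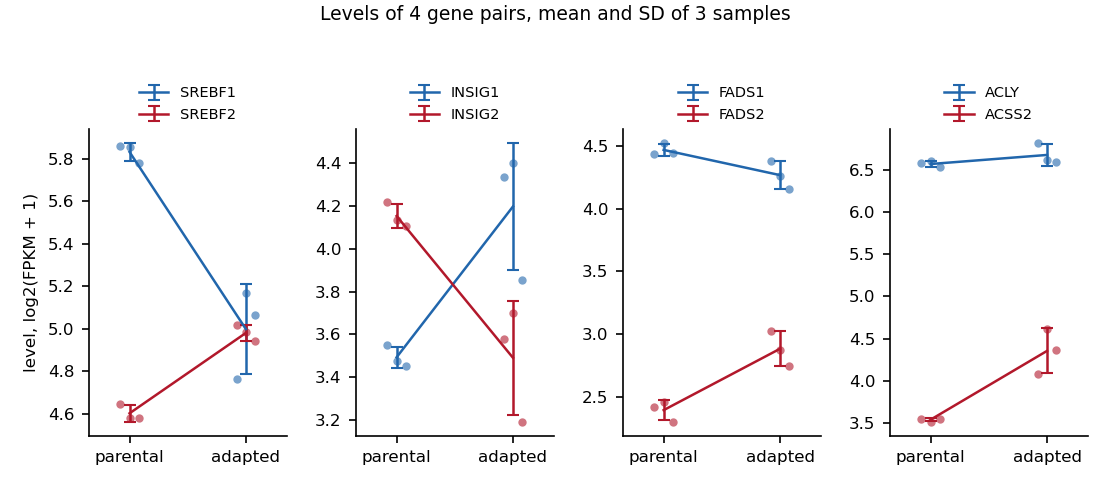
Levels, log2(FPKM + 1), of SREBF1 and SREBF2, INSIG1 and INSIG2, FADS1 and FADS2, and ACLY and ACSS2 in 3 parental and 3 adapted samples (points), with the mean and SD; each panel has its own y axis. INSIG1 and INSIG2 exchange their order, and SREBF1 and SREBF2 meet near 5.

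The first steps of the sterol branch lead from acetyl-CoA to activated isoprenoid. HMGCS1, the cytosolic synthase that makes HMG-CoA, was at 4.41, 4.40 and 4.32 in parental and 5.01, 5.12 and 4.70 in adapted samples. It rose by 0.57 (SE 0.11, limma, adjusted p = 0.00352), and 15.0% of its exonic bases also lie in the opposite-strand gene AC114947.2. MVK, mevalonate kinase, was at 2.63, 2.68 and 2.62 in parental and 3.31, 3.45 and 3.29 in adapted samples. The rise of 0.71 (SE 0.07, limma, adjusted p = 0.000183) was large against a small spread in both groups. PMVK, the next kinase, rose from 3.77 ± 0.06 to 4.26 ± 0.18 (SD, n = 3 each, log2 fold change 0.49). MVD, which decarboxylates mevalonate diphosphate, was at 4.60 ± 0.07 and 4.74 ± 0.07, with an adjusted p of 0.12 in limma that became 0.0421 after rescaling without mitochondrially encoded genes. ACAT2, the cytosolic thiolase at the entry, was at 3.46, 3.48 and 3.45 in parental and 3.61, 3.43 and 2.95 in adapted samples. The adapted values lay on both sides of the parental ones, and the log2 fold change of -0.13 (95% confidence interval -0.50 to 0.23) became 0.06 without adapted replicate 3. By GENCODE v29, 52.3% of the exonic bases of ACAT2 also lie in opposite-strand genes, TCP1 and SOD2 among them, and whether counting used the strand is not stated.

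Isopentenyl diphosphate isomerase, IDI1, rose from 2.42 ± 0.09 to 2.97 ± 0.22 (SD, n = 3 each), with 14.8% of its exonic bases shared with the opposite-strand gene IDI2-AS1. FDPS, farnesyl diphosphate synthase, which makes the last precursor shared by sterols, ubiquinone, dolichol and prenylated proteins, was at 6.24, 6.32 and 6.36 in parental and 6.80, 6.77 and 6.49 in adapted samples. It rose by 0.38 (SE 0.09, limma, adjusted p = 0.0112), and with a mean FPKM of 102 it had the highest level of the 32 genes in adapted cells. FDPS shares 18.6% of its exonic bases with the opposite-strand gene RUSC1-AS1 and has 8 annotated pseudogenes, with which the authors' counting could have split reads. FDFT1, squalene synthase, the first enzyme committed to sterols, was at 6.11, 6.02 and 6.04 in parental and 6.32, 6.10 and 5.98 in adapted samples. These groups overlapped, and the log2 fold change of 0.08 (95% confidence interval -0.14 to 0.29, limma, adjusted p = 0.497) was -0.02 without adapted replicate 1.

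The largest rises lay beyond squalene. SQLE, squalene epoxidase, a rate-limiting step of sterol synthesis, was at 2.60, 2.54 and 2.50 in parental and 3.70, 3.64 and 3.40 in adapted samples. The groups were far apart, and SQLE rose by 1.03 (SE 0.09, limma, adjusted p = 0.000107) and a mean FPKM 2.27-fold higher. LSS, lanosterol synthase, which closes the sterol rings, was at 3.42, 3.54 and 3.39 in parental and 4.43, 4.49 and 4.29 in adapted samples. It rose by 0.95 (SE 0.08) and had the lowest adjusted p of the 32 genes in limma, 7.22e-05. SC5D, the lathosterol desaturase, was at 3.82, 3.87 and 3.67 in parental and 4.42, 5.31 and 5.04 in adapted samples. Its log2 fold change of 1.14 (SE 0.21, limma, adjusted p = 0.0029) was the largest of the 32 genes, and the spread among adapted samples (SD 0.46) was the widest, with adapted replicate 1 nearest to the parental values.

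The other enzymes between lanosterol and cholesterol were higher in adapted cells on average, but not all passed the threshold. MSMO1, which removes the C4 methyl groups of lanosterol derivatives, rose from 4.03 ± 0.10 to 4.72 ± 0.28 (SD, n = 3 each). TM7SF2, a sterol C14 reductase, rose from 2.78 ± 0.08 to 3.44 ± 0.14. DHCR7, which catalyzes the last reduction to cholesterol in one arm of the pathway, was at 5.03 ± 0.03 in parental and 5.54 ± 0.09 in adapted samples (SD, n = 3 each). This rise of 0.50 (SE 0.06, limma, adjusted p = 0.000509) was seen at a similar size in all 3 adapted samples. NSDHL, which acts in C4 demethylation with MSMO1, rose by 0.35. The remaining 3 genes did not pass. CYP51A1, lanosterol demethylase, differed by 0.23 (log2) with an adjusted p of 0.151 in limma, which was 0.38 without adapted replicate 3 (adjusted p = 0.00855). By GENCODE v29, 79.4% of its exonic bases also belong to the same-strand loci AC000120.2 and AC000120.3, so its value is uncertain. EBP, a sterol isomerase, was at 4.22, 4.65 and 3.96 in the adapted samples and 4.14, 4.04 and 4.03 in the parental ones, which overlap. The difference of 0.21 was 0.02 without adapted replicate 2 and 0.37 without adapted replicate 3. HSD17B7, a sterol ketoreductase with 2 annotated pseudogenes, had a log2 fold change of 0.10 (95% confidence interval -0.14 to 0.35), which was 0.02 without adapted replicate 2 and 0.21 without adapted replicate 3.

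STARD4 was the only sterol gene past the threshold in the other direction. It encodes a cytosolic carrier that moves cholesterol between membranes rather than an enzyme of synthesis. Its level was 2.52, 2.45 and 2.38 in parental and 2.05, 2.18 and 2.02 in adapted samples. All adapted values were below the parental ones, and STARD4 fell by 0.37 (SE 0.08, limma, adjusted p = 0.00646). Of the 18 synthesis enzymes without it, 12 rose and the other 6 did not pass the threshold, a count made with the values known. Of all rows tested, 30.7% rose and 26.2% fell past the same threshold.

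In the fatty acid branch the enzymes that build and desaturate palmitate were lower in adapted cells. SCD, stearoyl-CoA desaturase, which makes oleate and palmitoleate, was at 6.40, 6.37 and 6.36 in parental and 5.25, 5.73 and 5.37 in adapted samples. It was the second most abundant of the 32 transcripts in parental cells and fell by 0.93 on the log2 scale (SE 0.12, limma, adjusted p = 0.000528), a mean FPKM 1.90-fold lower. ELOVL6, which elongates palmitate to stearate, was at 3.49, 3.45 and 3.34 in parental and 2.79, 2.53 and 2.39 in adapted samples. It fell by 0.85 (SE 0.11, limma, adjusted p = 0.000543), a mean FPKM 1.96-fold lower. FASN, the fatty acid synthase itself, was at 5.71, 5.70 and 5.64 in parental and 5.30, 5.17 and 5.06 in adapted samples. The groups were separate, and it fell by 0.51 on the log2 scale (SE 0.07, limma, adjusted p = 0.000988).

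ACACA, acetyl-CoA carboxylase, which commits acetyl-CoA to fatty acids, was at 4.97, 4.96 and 4.97 in parental and 4.83, 4.66 and 4.49 in adapted samples. All 3 adapted values were lower, but the call of the fall by 0.31 (limma, adjusted p = 0.021) was lost when low rows were kept (0.0683), without parental replicate 1, 2 or 3 (0.0637, 0.0633 and 0.0637) and without adapted replicate 2 (0.0549). FADS1, the delta-5 desaturase of polyunsaturated fatty acids, was at 4.44, 4.53 and 4.44 in parental and 4.38, 4.26 and 4.16 in adapted samples. Its fall by 0.20 lay at the threshold (limma, adjusted p = 0.0497) and lost the call in 12 of 18 alternative fits. In the fits that each left out 1 sample, its adjusted p was 0.0987, 0.167 and 0.105 without parental replicates 1, 2 and 3, and 0.1 and 0.117 without adapted replicates 2 and 3, whereas it was 0.00684 without adapted replicate 1. With the replicate number as a block it was 0.0789. The direction was the same in all of these fits. SCD, ELOVL6 and FASN kept their calls in all 18 alternative fits.

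ACSS2 and FADS2 rose past the threshold, against the 5 genes of the branch that fell. ACSS2, which makes acetyl-CoA from acetate in the cytosol and nucleus, was at 3.55, 3.52 and 3.55 in parental and 4.09, 4.62 and 4.36 in adapted samples. It rose by 0.81 (SE 0.13, limma, adjusted p = 0.00132), a mean FPKM 1.85-fold higher. ACLY, which makes the same acetyl-CoA from citrate, was the most abundant of the 32 transcripts in parental cells (6.57 ± 0.04, SD, n = 3) and was at 6.82, 6.61 and 6.59 in adapted samples. Its log2 fold change of 0.11 (95% confidence interval -0.07 to 0.29) did not pass the threshold and was 0.03 without adapted replicate 1. FADS2, the delta-6 desaturase, was at 2.42, 2.46 and 2.30 in parental and 3.03, 2.87 and 2.75 in adapted samples. It rose by 0.49 (SE 0.09, limma, adjusted p = 0.0034). By GENCODE v29 the FADS1 locus lies within the span of FADS2 on the opposite strand of chromosome 11. The 2 genes share under 5% of their exonic bases. The difference FADS2 minus FADS1 moved from -2.07 ± 0.06 to -1.38 ± 0.03 (SD, n = 3 each), and the difference ACSS2 minus ACLY from -3.03 ± 0.05 to -2.32 ± 0.38. These gene pairs were singled out after their values were seen, and their differences are given without a test.

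**Figure D3:**
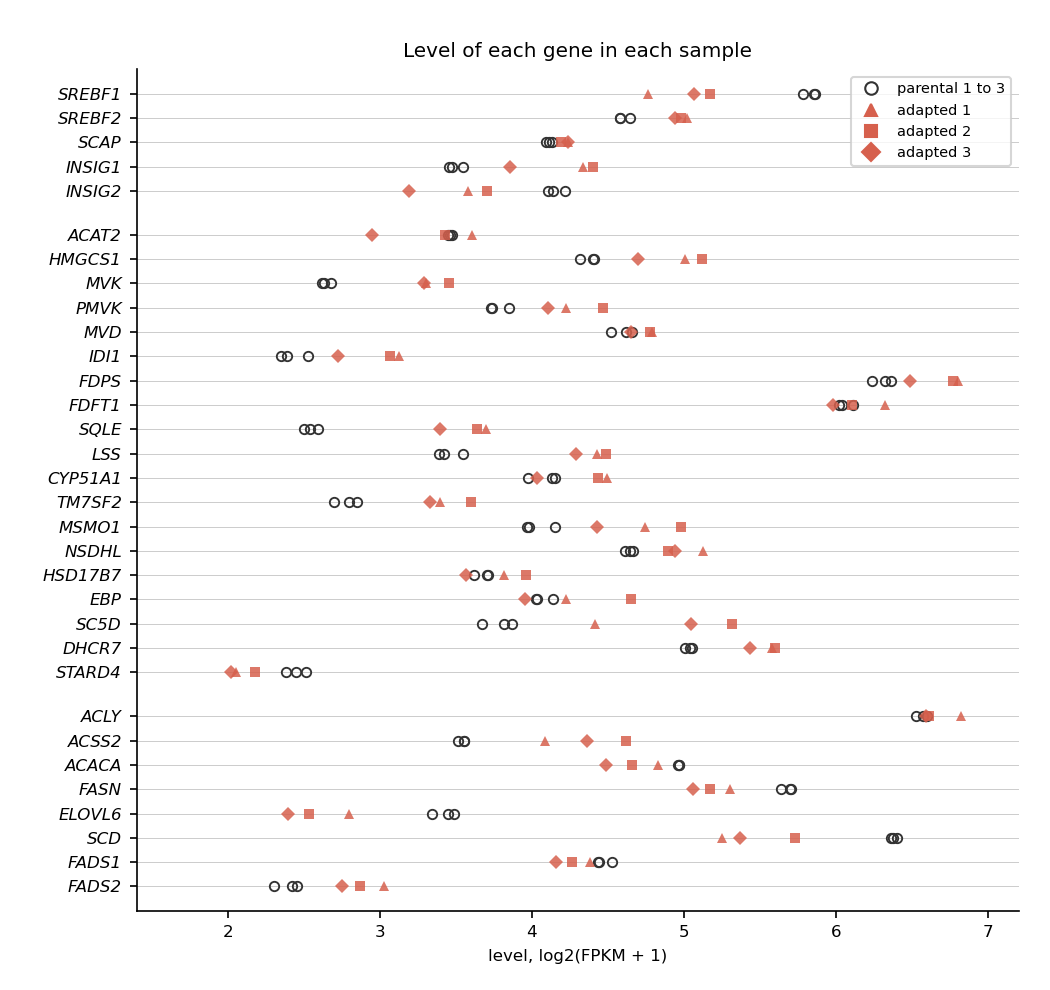
Level, log2(FPKM + 1), of each of the 32 genes in each parental (open circles) and adapted (filled symbols by replicate) sample. The parental samples lie close together, and adapted replicate 3 (diamonds) is the lowest adapted sample in 26 genes.

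The adapted samples differed from one another more than the parental ones did. The SD over 3 replicates was larger in adapted than in parental samples in 31 of the 32 genes, with a median of 0.17 against 0.05. Each epithelial marker showed the same, with 0.16 against 0.0065 in KRT19 and 0.14 against 0.02 in EPCAM. The wider spread is thus not particular to the 32 genes, and its share over all rows was not computed. Adapted replicate 3 was the lowest adapted sample in 26 of the 32 genes, 17 of 19 in the sterol branch, and was the highest in none. Over all rows tested it was the lowest in 33.4% and the highest in 28.0%. Of the 12 sterol genes that rose, it was the lowest adapted sample in 10. In each of these 12 it was above all parental samples, but the 12 were picked by a call that used this replicate. Adapted replicate 1 was the lowest in SC5D and ACSS2, which rose, and in SREBF1 and SCD, which fell. What sets adapted replicate 3 apart was not tested. Leaving it out gave 13 sterol genes higher and 1 lower, and moved the median log2 fold change of the branch from 0.49 to 0.56.

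The promoters of the 32 genes were searched for letters known to be bound by SREBPs and their partners. RefSeq windows of 300 bases (GRCh38.p14, 250 before and 50 after the start) were at hand for 28 of the 32 genes, and not for SQLE, FASN, ACAT2 and FDFT1. The 7 patterns were picked with the expression values known, were searched on both strands, and overlap one another in part. The classical sterol regulatory element was found in SREBF2 and in 0.0586% of all 27305 genes with a window. The shorter TCACNCCAC, which lies within it, was also found in SREBF2, and in 1.39% of all genes. The looser TCACNCNAC was found in 5 of the 28 genes, SREBF2, FDPS, HSD17B7, ACSS2 and FADS2, and in 3.13% of all genes. SREBF2, FDPS, ACSS2 and FADS2 rose past the threshold and HSD17B7 did not pass it. The other 11 risen genes with a window, HMGCS1, LSS and SC5D among them, did not hold the pattern, nor did the 7 fallen genes with a window. The 5 matches are shown so that the letters can be compared between genes, and they were chosen after the values were seen. Each is printed on the strand of the gene with up to 30 bases on either side, and capitals mark the match to TCACNCNAC.
SREBF2, chr22:41832942-41833010, plus strand: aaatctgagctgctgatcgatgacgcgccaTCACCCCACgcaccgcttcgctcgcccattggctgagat
FDPS, chr1:155308696-155308764, plus strand: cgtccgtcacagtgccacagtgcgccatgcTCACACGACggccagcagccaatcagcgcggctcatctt
HSD17B7, chr1:162790574-162790642, plus strand: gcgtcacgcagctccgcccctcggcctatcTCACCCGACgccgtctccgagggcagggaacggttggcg
FADS2, chr11:61815953-61816021, plus strand: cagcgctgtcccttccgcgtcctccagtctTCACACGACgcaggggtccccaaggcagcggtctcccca
ACSS2, chr20:34876362-34876412, plus strand: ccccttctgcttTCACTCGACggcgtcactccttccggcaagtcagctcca
The matches begin 133, 140, 98, 220 and 238 bases before the start used for the window in SREBF2, FDPS, HSD17B7, FADS2 and ACSS2. In FADS2 and ACSS2 this start is not the outer end of the GENCODE v29 locus. The FADS2 stretch lies inside the FADS2 locus (61792980 to 61867354) and also inside that of FADS1 (61799625 to 61829318), whose fall lay at the threshold. The ACSS2 stretch lies inside the ACSS2 locus, which begins at 34872146. CCAAT, the box bound by NF-Y, begins 27 bases from the match in SREBF2, 18 bases in FDPS and 46 bases in HSD17B7, counted between first letters on either strand, and has no occurrence in the windows of FADS2 and ACSS2 that hold the match. TCACCNNAC was found in SREBF2, HSD17B7 and INSIG1 (3.32% of all genes). CCAAT was found in at least 1 window of 21 of the 28 genes and of 39.7% of all genes, GGGCGG, a box bound by SP1, in 27 and 48.3%, and the E-box CACGTG in 4 (INSIG1, LSS, SC5D and SCAP) and 8.77%. A match is a description of the letters and shows neither binding nor its absence.

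Of 86 related genes outside the list, 79 passed the filter, and 31 were higher and 20 lower past the threshold. These are 39.2% and 25.3% of the 79, against 30.7% and 26.2% of all rows. The lower share is near that of all rows, and the higher share lies above it. The 8 lists hold only 4 to 16 tested genes each. Of the 7 left out as too low, ABCG1, a sterol exporter, and ACACB, the mitochondrial carboxylase, are examples. The 9 genes that cleave, hold or degrade the SREBPs and their partners held 4 that rose and 2 that fell. This is a share of 66.7% past the threshold, against 56.9% of all rows. MBTPS1, the first protease that cleaves the SREBPs, rose by 0.66, and MBTPS2, the second, fell by 0.21. ERLIN1, an endoplasmic reticulum membrane protein tied to INSIG and SREBP turnover, fell by 0.49. Of 4 later sterol genes outside the list, 2 rose and 2 fell, a share of 100% against 56.9% of all rows. ERG28, a scaffold of the C4 demethylation enzymes, rose by 0.76. LBR, a nuclear envelope protein with the same C14 reductase activity as TM7SF2, fell by 0.64 and FAXDC2 by 0.76. The C14 reductases TM7SF2 and LBR thus changed in opposite directions.

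Of 14 tested genes for sterol uptake, movement, storage and export, 5 rose and 4 fell. This is a share of 64.3% past the threshold, against 56.9% of all rows. ABCA1, which exports cholesterol to apolipoprotein and is a target of the liver X receptors, was at 4.23, 4.24 and 4.15 in parental and 2.27, 2.19 and 2.15 in adapted samples. It fell by 2.00 on the log2 scale (SE 0.07, limma, adjusted p = 2.08e-06), a larger change than in any of the 32 genes. NR1H3, which encodes liver X receptor alpha, fell by 0.78. LIPA, the lysosomal lipase that frees cholesterol from lipoprotein esters, rose by 0.65, and GRAMD1A, a carrier of sterol from the plasma membrane, rose by 0.54. In the isoprenoid branch that leaves at farnesyl diphosphate, 4 of 13 genes rose and 2 fell, a share of 46.2% past the threshold against 56.9% of all rows. FNTB and RABGGTA, subunits of enzymes that attach isoprenoids to proteins, rose by 1.08 and 0.74, whereas FNTA, the partner of FNTB, fell by 0.31.

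Of 10 other tested genes for desaturation and the elongation cycle, 6 rose and 2 fell, a share of 80.0% past the threshold against 56.9% of all rows. SCD5, the second human stearoyl-CoA desaturase, was at 0.83, 0.95 and 0.94 in parental and 1.78, 2.66 and 2.64 in adapted samples. It rose by 1.46 (SE 0.23, limma, adjusted p = 0.0014), opposite to SCD, but at a far lower level per length. FADS3, a paralog in the same cluster as FADS1 and FADS2, rose from 3.26 ± 0.07 to 4.69 ± 0.02 (SD, n = 3 each). HSD17B12 and TECR, which act in the elongation cycle of very long chain fatty acids, fell by 0.57 and 0.30. Of 4 tested acyl-CoA synthetases, ACSL4, which activates arachidonate and related acids, fell by 1.83, from 7.60 ± 0.07 to 5.77 ± 0.34, and ACSL5 fell by 0.66. ACSL1 passed the threshold as higher (adjusted p = 0.0398, limma), though its groups overlapped.

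In glycerolipid synthesis and storage 7 of 16 genes rose and 2 fell, a share of 56.2% past the threshold against 56.9% of all rows. The glycerol-3-phosphate acyltransferases of the endoplasmic reticulum changed in opposite directions, GPAT3 with a fall by 1.50 and GPAT4 with a rise by 0.64. DGAT2, which completes triacylglycerol, rose by 0.75, and PLIN2, the coat protein of lipid droplets, fell by 0.77. Among 9 tested genes of citrate export, NADPH supply and lipogenic regulation, 2 rose and 4 fell. Their share past the threshold was 66.7%, against 56.9% of all rows. PRKAB1, a subunit of the AMP-activated kinase, rose by 0.93 and MLX, the partner of the carbohydrate response factors, fell by 0.55. In 3 of these genes the values of 1 group carry the constant described above. IDH1, which makes cytosolic NADPH, rose by 0.78 as deposited, and its difference was 0.12 with the constant of 0.66 subtracted from the adapted values (limma, adjusted p = 0.23). The kinase subunit PRKAA2 fell by 0.67 as deposited and by 0.47 with 0.2 subtracted from the parental values (adjusted p = 0.00213). PRKAA1 fell by 0.33 as deposited, and with the same subtraction its difference was -0.13 (adjusted p = 0.113).

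**Figure D4:**
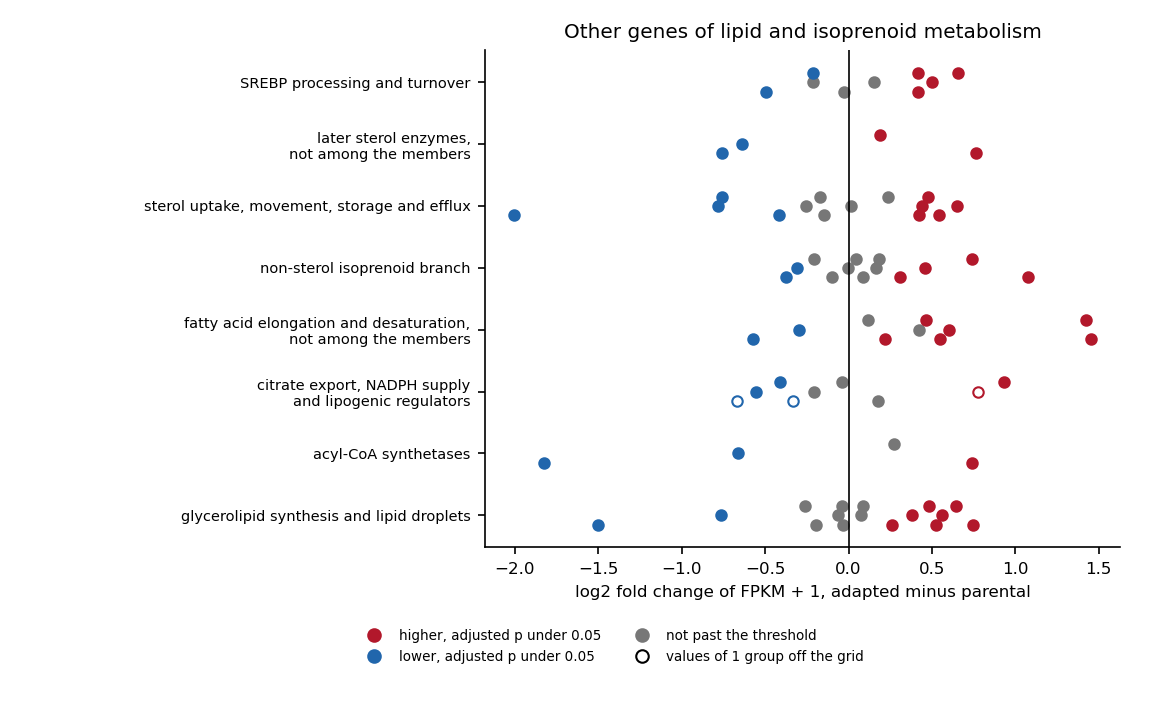
Log2 fold change (adapted minus parental, x axis) of the 79 related genes tested, in 8 lists; red and blue points passed an adjusted p of 0.05 in limma, grey points did not, and open points mark the 3 genes whose values in 1 group carry a constant. ABCA1, ACSL4 at -1.83 and GPAT3 at -1.50 lie farthest left, and SCD5 at 1.46 and FADS3 at 1.42 farthest right.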

How the data were processed

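The authors deposited 1 table of log2 values with a row per gene and a column per sample. The unit is not named. Because 2 to the power of the value, minus 1, has 6 decimals in 27069 of 27216 rows, the values were taken as log2 of a unit plus 1. That this unit is FPKM was assumed, and the decimals do not tell it from another scaled unit. The submitters' processing notes name hg38, Bowtie2 2.1.0, STAR and edgeR without roles, and the study's methods name DESeq2, which needs counts. The quantifier and annotation are not given in the sources used here. Columns were matched to samples by group and replicate number. Rows averaging at least 1 (12656) were tested with limma 3.58.1 in R 4.3.3 (lmFit, eBayes with an intensity trend, unpaired), two-sided, with Benjamini-Hochberg adjustment over all rows and a threshold of 0.05. The fit was tried on simulated data with the same spread in both groups. Most of the 32 genes varied more in adapted samples, a case this simulation does not cover. Standard errors and 95% confidence intervals are limma's. The exact permutation test came from scipy 1.17.1.

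All 32 genes are named. Of each related list, up to 2 genes that rose and 2 that fell most past the threshold without overlap between groups are named, except some that are not reported here. Genes beyond this (ABCG1, ACACB, ACSL1, PRKAA1) and the gene pairs were added after their values were seen. By the rule for promoters, members past the threshold that changed by 1 or more (log2) and hold a sterol element were to be shown. SC5D did not meet it, SQLE had no window, and 5 others were chosen. Genes, lists and tests were chosen with earlier results of these data known. Loci, exons and pseudogenes were taken from GENCODE v29 (GRCh38), all 32 symbols matching, and promoters from RefSeq.

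Other settings tried were no filter, a mean of at least 3, a pseudocount of 0.1, quantile normalization, median centring, scaling to 1 sum (all genes, or leaving out mitochondrially encoded ones), eBayes without a trend or robust, a replicate block, 1 sample left out at a time, subtracting the constants, leaving out rows named NewGene_, and other thresholds.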

Additional observations from a re-analysis of the deposited data

How the results depend on the processing

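Of the 24 genes past the threshold, 22 held their call and direction in all 18 alternative fits (17 for genes under the stricter filter), the exceptions being ACACA and FADS1, which kept their direction. Of the 8 others, SCAP, MVD and CYP51A1 passed the threshold in 1 or 2 fits, and 2 that did not pass changed direction, ACAT2 (-0.27 to 0.057 with 1 sample left out, 0.057 without adapted replicate 3) and FDFT1 (-0.016 to 0.15, -0.016 without adapted replicate 1). The count of rows past the threshold was 4532 with a mean of at least 3, where 7693 rows were tested, and 1328 with a change of 1 or more (log2). That limit left 0 regulators, 2 sterol genes and 0 fatty acid genes. In the 6 fits that each left out 1 sample, all rows past the threshold numbered 5763 to 8370, sterol genes 13 or 14, fatty acid genes 5 to 7 and regulators 4, and the medians ranged from 0.39 to 0.56 (sterol), from -0.33 to -0.19 (fatty acid) and from 0.10 to 0.13 (regulators). Samples with the same replicate number did not deviate together across rows (r = -0.051, -0.031 and -0.02), so the number is not taken as a pairing. With it as a block, 6761 rows passed the threshold, 13 sterol genes, 6 fatty acid genes and 4 regulators, and FADS1 was the 1 member whose call it changed. Scalings moved the median of all rows by at most 0.04. Depth is unknown, so counting error could not be given.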
